A study of Homo sapiens with 28 samples.

Results

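The comparison described here set subcutaneous HCT116 tumors from mice given Palbociclib and Telaglenastat together (Combination) against tumors from mice given vehicle (Control). Its members were 7 RNA-seq libraries of the 28 in the series, 4 Combination tumors and 3 Control tumors, picked by their treatment labels and not by any measured value, and all 58278 rows of the gene count table were considered. HCT116 is a human colorectal carcinoma cell line. Here it carried a luciferase and GFP reporter and was grown in male NOD SCID mice, a strain that lacks mature T and B cells, injected at 5 weeks of age. Combination mice received Palbociclib at 100 mg/kg/day and Telaglenastat (spelled Telaglenestat in the labels) at 150 mg/kg/day by oral gavage for 23 days, and Control mice received vehicle for the same 23 days. The other libraries were 5 Palbociclib tumors, 4 Telaglenastat tumors, and 3 cultures for each of the 4 treatments, lines derived from treated tumors and kept without drug. Their results are given below only to show where the Combination tumors stood apart. The Palbociclib and Telaglenastat tumors also took part in the fit behind the comparison of Combination with Control. All tumors came from the same line, in a host without adaptive immunity, so the libraries are replicates of tumors and not of cell lines.

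Palbociclib blocks CDK4 and CDK6, the cyclin D dependent kinases that phosphorylate the retinoblastoma protein RB. Unphosphorylated RB holds back the E2F transcription factors, which drive the genes of S phase, while genes of G2 and mitosis are read later in the cycle by complexes containing MYBL2 and FOXM1. Telaglenastat blocks the mitochondrial step that turns glutamine into glutamate, a source of carbon for the TCA cycle and of nitrogen for amino acids and nucleotides.

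The genes of DNA replication and mitosis carried the broadest falls. The DNA before 4 of them is shown first, so that 2 kinds of short words in it can be seen. These 4 were picked by hand and not by the size of their fall, and each holds a match. Each stretch is the 200 bases before the RefSeq transcription start, on the strand of the gene, in build GRCh38.p14. Capitals mark 8-letter E2F words (TTTCCCGC, TTTGGCGC, TTTCGCGC or TTTGCCGC) in the first pair and the 6-letter cell cycle homology word (CHR, TTTGAA) in the second pair, found on either strand. E2F1, an E2F factor that is itself a target of E2F, lies on the minus strand at chr20:33686386-33686585, LIG1, the replicative DNA ligase, on the minus strand at chr19:48170345-48170544, CDC20, an activator of the anaphase promoting complex, on the plus strand at chr1:43358781-43358980, and PLK1, a mitotic kinase, on the plus strand at chr16:23678689-23678888.
E2F1: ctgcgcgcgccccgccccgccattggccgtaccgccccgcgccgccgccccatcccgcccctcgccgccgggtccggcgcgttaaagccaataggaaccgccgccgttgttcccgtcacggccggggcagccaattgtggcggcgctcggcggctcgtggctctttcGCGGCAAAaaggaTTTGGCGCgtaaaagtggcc
LIG1: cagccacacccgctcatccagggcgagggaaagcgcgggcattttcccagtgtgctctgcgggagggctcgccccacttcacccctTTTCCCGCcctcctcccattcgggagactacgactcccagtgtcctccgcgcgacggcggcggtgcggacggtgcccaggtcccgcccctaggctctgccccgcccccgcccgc
CDC20: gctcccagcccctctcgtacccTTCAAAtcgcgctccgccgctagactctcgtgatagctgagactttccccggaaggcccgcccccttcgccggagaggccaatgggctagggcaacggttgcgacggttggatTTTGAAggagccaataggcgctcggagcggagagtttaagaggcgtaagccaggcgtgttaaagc
PLK1: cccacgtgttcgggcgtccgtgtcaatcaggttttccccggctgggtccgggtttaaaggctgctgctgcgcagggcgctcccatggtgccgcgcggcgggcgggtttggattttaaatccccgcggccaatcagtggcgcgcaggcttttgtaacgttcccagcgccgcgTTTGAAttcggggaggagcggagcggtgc
Within the 250 bases before the start, an E2F word stood in 18 of the 41 promoters matched among 47 genes of G1/S and DNA replication (43.9%), against 2.79% of all 27305 promoters in the RefSeq table. The CHR word stood in 18 of the 34 promoters matched among 40 genes of G2/M and mitosis (52.9%), against 13.6% of all promoters. Some genes named below held no match there, such as POLD1 and TK1 for the E2F word and MYBL2 and AURKB for the CHR word. A match of letters is a description of the sequence and not a measured binding site.

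Gene levels are given below as CPM, counts scaled to a common library size with TMM factors, and differences as log2 fold changes with their standard errors. Tests were edgeR quasi-likelihood tests fitted on all 16 tumors, with Benjamini-Hochberg adjustment over 14848 genes, and a gene was called at an adjusted p under 0.05. The 7 libraries held 6741260 to 8849410 counts each, with Control at 7539300 or more and Combination at 7218780 or less. The share of counts from mitochondrial genes was 6.78 to 7.22% in Control and 13.2 to 14.8% in Combination. Of 14 colorectal epithelial markers 8 passed the filter on low counts, with CDX1 and CEACAM6 at 0 in all 7 libraries, and their summed level was 3119 to 3600 CPM in Control and 2358 to 2580 CPM in Combination. Of 25 markers of stroma, endothelium and immune cells 9 passed, 7 were at 0 in all 7 libraries (DCN, LUM, THY1, CDH5, C1QA, C1QB and CD163), and the sum was 211 to 256 CPM in Control and 124 to 167 CPM in Combination. These sums carry no correction for the GC content of the genes, which is described next. With that correction 1 epithelial marker was called lower and 3 higher. Of the markers of stroma, endothelium and immune cells 0 were called with it. In bulk tumors fewer cells of a type and less RNA per cell cannot be told apart.

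The log2 fold changes moved with base composition. Across 14787 genes with a transcript sequence, Pearson's r between the log2 fold change and transcript GC content was -0.57, a description over genes that share libraries. Genes of 40% GC or less had a median log2 fold change of 0.26, and genes above 60% GC had a median of -1.21, of which 73.1% were called lower and 0.772% higher. The slope of log2 CPM on GC content was 0.249 to 0.261 per SD of GC in the 3 Control tumors and -0.288 to -0.161 in the 4 Combination tumors. It was -0.391 to -0.305 in the Telaglenastat tumors and 0.096 to 0.366 in the Palbociclib tumors, and this trend cannot be told apart from the treatments. A second fit with offsets that remove the trend of each library with GC content and transcript length (called the corrected fit below) is therefore given wherever it ends a call, turns a direction or moves a fold by over 1.5 times. Gene positions are those of GENCODE 29 on hg38, the build of the counts.

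**Figure D1:**
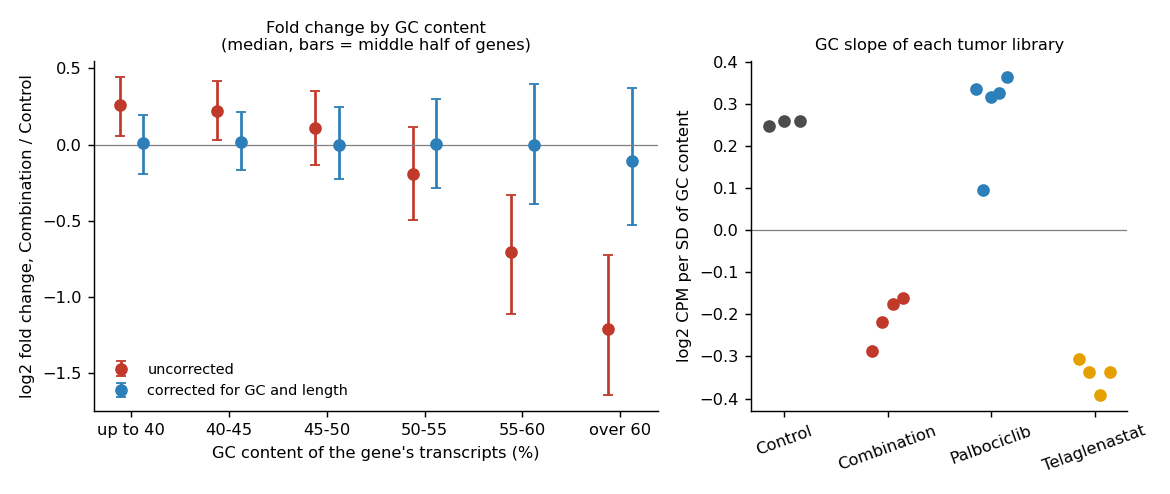
Log2 fold change of Combination against Control tumors by transcript GC content, in the main and the corrected fit (left; points are medians over genes and bars span the 25th to 75th percentile), and the slope of log2 CPM on GC content in each tumor library (right). In the main fit the median fell from 0.26 in genes of 40% GC or less to -1.21 in genes above 60% GC, and the 4 Combination slopes (-0.288 to -0.161) lay below the 3 Control slopes.

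Of the 14848 genes tested, 3998 (26.9%) were lower and 2614 (17.6%) were higher in Combination than in Control tumors. In the corrected fit 1977 (13.3%) were lower and 1933 (13.0%) were higher. Lower genes made up 60.5% of the calls in the first fit and 50.6% in the second. At least 2-fold changes numbered 1946 lower and 255 higher before the correction, and 292 lower and 340 higher after it. In both fits 1505 genes were called lower and 1132 were called higher, and 190 genes were called in opposite directions. The level did not overlap between the 3 Control and the 4 Combination libraries in 7022 genes (47.3%), so absence of overlap alone was common. The median log2 fold change over all tested genes was -0.04, and 0.00 in the corrected fit.

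Genes of the CDK4 and CDK6 axis moved in both directions. Among 14 tested genes of the drug targets and the RB axis, 5 were lower and 5 higher with a median of -0.19, and in the corrected fit 2 were lower and 7 higher with a median of 0.21. The shares of all tested genes were 26.9% lower and 17.6% higher, or 13.3% and 13.0% in the corrected fit. CCND1 (chr11:69641087-69654474, plus strand), which encodes cyclin D1, the partner of CDK4 and CDK6, stood at 511, 526 and 518 CPM in Control and at 1121, 1208, 1079 and 1063 CPM in Combination. The groups did not overlap, and the difference was 1.11 ± 0.08 (2.16-fold, adjusted p = 1.6e-08), or 1.67 in the corrected fit. CDK6 was at 13.6, 39.6 and 18.6 CPM in Control and at 42.7, 52.4, 46.7 and 53.9 CPM in Combination (1.03 ± 0.22, adjusted p = 0.00081). The second Control tumor was close to the lowest Combination tumor, and the others were well below it. CDK4 was lower, at 157, 178 and 169 CPM in Control and 103, 126, 129 and 113 CPM in Combination (-0.51 ± 0.09, adjusted p = 0.00016), but the corrected fit gave 0.06 with an adjusted p of 0.58. CDKN2B, an inhibitor of CDK4 and CDK6, rose 1.97-fold (0.97 ± 0.19, adjusted p = 0.00039), from 7.75 to 13.5 CPM in Control to 18.6 to 23.4 CPM in Combination. CDKN2C, another inhibitor of the same family, fell 3.31-fold (-1.73 ± 0.38, adjusted p = 0.0011), from 5.87 to 7.07 CPM to 1.04 to 3.88 CPM. RB1 differed by 0.06 (adjusted p = 0.68) and CCNE1, which encodes cyclin E1, by 0.25 (adjusted p = 0.11). Neither was called, and both were chosen after their values were seen. CDKN1A, the p21 inhibitor, was at 147, 153 and 162 CPM in Control and 78.8, 77.0, 64.3 and 89.0 CPM in Combination, a 1.99-fold fall that was not called in the corrected fit (-0.18, adjusted p = 0.17).

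GLUL, the glutamine synthetase that makes glutamine from glutamate, was lower, at 143, 137, 130.1 and 136 CPM against 204, 214 and 198 CPM (-0.59 ± 0.08, adjusted p = 3.2e-06).

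Genes of the cell cycle fell as groups. Of 47 tested genes of G1/S and DNA replication 38 were lower and 0 higher, with a median of -0.79, and 40 were lower and 0 higher in the corrected fit. Of 40 genes of G2/M and mitosis 39 were lower and 0 higher, with a median of -0.77, and 39 were lower in the corrected fit, with a median of -0.96. Among 16 genes of homologous recombination and the Fanconi anemia pathway 9 were lower and 0 higher (median -0.33), and 13 were lower in the corrected fit (median -0.50). These shares stand beside 26.9% and 13.3% of all tested genes called lower.

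TK1, the salvage enzyme thymidine kinase, was at 85.7, 96.2 and 103 CPM in Control and at 18.7, 23.4, 19.5 and 18.7 CPM in Combination. The groups lay far apart, with a 4.72-fold fall (-2.24 ± 0.19, adjusted p = 5.8e-08) that was 2.24-fold in the corrected fit. LIG1 was at 54.5, 54.3 and 47.6 CPM in Control and 11.3, 12.5, 15.5 and 13.4 CPM in Combination, a 3.95-fold fall (2.25-fold in the corrected fit). POLD1, the catalytic subunit of DNA polymerase delta, fell 4.90-fold and CDT1, which licenses replication origins, 3.99-fold, or 2.16-fold and 1.73-fold in the corrected fit. E2F1, whose promoter is printed above with 2 matches, fell from 14.6 to 16.2 CPM to 3.43 to 6.82 CPM, 3.26-fold, and 1.51-fold in the corrected fit (adjusted p = 0.046). TYMS, thymidylate synthase, fell 1.73-fold, from 158 to 168 CPM to 81.2 to 112 CPM, and 1.64-fold in the corrected fit.

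MYBL2 (chr20:43667019-43716496, plus strand), the MYB family factor of the mitotic program, had the largest fall that the rule for named genes admitted. It stood at 48.1, 63.3 and 53.6 CPM in Control and 8.26, 8.66, 8.95 and 6.84 CPM in Combination, 6.71-fold lower (-2.75 ± 0.24, adjusted p = 6.3e-08), and 3.42-fold lower in the corrected fit. AURKB, the kinase of the chromosomal passenger complex, was at 39.0, 42.6 and 39.5 CPM against 9.85, 9.85, 7.53 and 8.03 CPM, 4.58-fold lower (3.01-fold in the corrected fit). CDC20 was at 121, 140.2 and 124 CPM against 34.1, 37.2, 32.2 and 36.3 CPM, 3.67-fold lower (2.32-fold in the corrected fit). In each of these genes the highest Combination tumor was below the lowest Control tumor. PLK1 fell 3.15-fold (1.94-fold in the corrected fit), ESPL1, the separase that opens cohesin, 4.61-fold (2.88-fold), and PIF1, a DNA helicase, 4.82-fold (2.33-fold). MKI67, the proliferation antigen Ki-67, was at 449.8, 538 and 479.8 CPM in Control and 270.5, 215, 176 and 180.2 CPM in Combination (-1.22 ± 0.12, adjusted p = 2.5e-07). LMNB1, the nuclear lamina protein lamin B1, was at 149, 160.1 and 162 CPM against 113, 92.7, 74.4 and 78.8 CPM (-0.81 ± 0.13, adjusted p = 3.4e-05). For both, Combination tumor 1 was the highest of its group.

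Among the repair genes, FANCA of the Fanconi core complex fell 2.65-fold (1.85-fold in the corrected fit), RAD54L, a recombination motor, 2.12-fold and FANCG 2.09-fold (1.34-fold in the corrected fit). BRIP1, a helicase that partners BRCA1, was at 61.0, 53.7 and 52.0 CPM against 36.7, 32.7, 31.8 and 31.8 CPM, 1.67-fold lower.

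The Combination tumors were also set against each single treatment. Set against Telaglenastat tumors in the corrected fit, 1103 genes (7.43%) were called lower in Combination and 1225 (8.25%) higher. Set against Palbociclib tumors, 1170 (7.88%) were called lower and 1042 (7.02%) higher. Against Telaglenastat tumors 37 of the 47 G1/S genes were lower and 1 higher (median -0.55) and 40 of the 40 G2/M genes were lower (median -0.96). Against Palbociclib tumors 9 of the 47 G1/S genes were lower and 2 higher (median -0.07), and 6 of the 40 G2/M genes were lower and 0 higher (median -0.09). MKI67 averaged 518 ± 48.5 CPM (SD, n = 4) in Telaglenastat tumors and 236 ± 24.97 CPM (SD, n = 5) in Palbociclib tumors. The Combination level was lower than the first (-1.23 in the corrected fit, adjusted p = 6.3e-07) and was not called against the second (-0.24, adjusted p = 0.16). MYBL2 was lower in Combination than in either, by 1.05 on the log2 scale against Telaglenastat (-1.05, adjusted p = 0.0016) and by 0.84 against Palbociclib (-0.84, adjusted p = 0.0046).

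**Figure D2:**
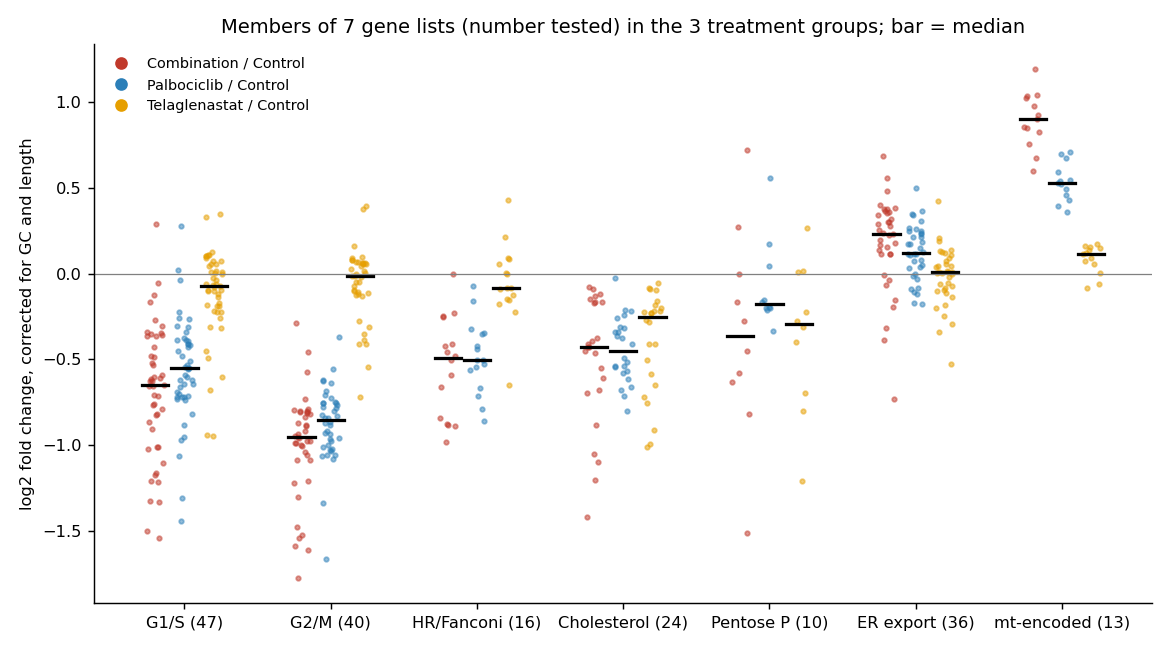
Corrected log2 fold change against the same Control tumors of each tested member of 7 gene lists in Combination, Palbociclib and Telaglenastat tumors (points are genes, bars are medians). The median of the G2/M genes was -0.96 in Combination, -0.85 in Palbociclib and -0.01 in Telaglenastat tumors, and the 3 groups share their controls.

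The 12 largest rises that the naming rule admitted were CALB1, LCN2, F3, CPA4, SLPI, MMP7, IFI16, ADGRF1, FOXQ1, CR2, APOL3 and CH507-9B2.9, a list set by size of change. Several encode secreted or surface proteins. F3, tissue factor, which starts coagulation, lies at chr1:94529225-94541800 on the minus strand. It was at 75.1, 81.8 and 112 CPM in Control and 568, 432, 480.3 and 395 CPM in Combination, 5.24-fold higher (2.39 ± 0.25, adjusted p = 3e-07). LCN2 (chr9:128149071-128153455, plus strand), the iron-siderophore binding protein lipocalin 2, was at 2.69, 2.99 and 4.0 CPM against 37.6, 17.3, 24 and 17.1 CPM, 7.44-fold higher (2.896 ± 0.35, adjusted p = 2e-06), and 11.2-fold in the corrected fit. The Combination tumors varied more among themselves in LCN2 than in F3, and in both genes every one of them was above every Control. CPA4, a carboxypeptidase, was at 6.62, 6.97 and 10.1 CPM against 31.8, 40.01, 42.9 and 42.7 CPM (5.01-fold higher). MMP7, the matrix metalloproteinase matrilysin, was at 22.6, 35.7 and 40.4 CPM against 145, 121, 138 and 116 CPM (3.96-fold higher). CALB1, the calcium buffer calbindin 1, was at 1.24, 0.332 and 2.06 CPM against 11.9, 4.18, 14.6 and 11.01 CPM (8.69-fold higher, with a standard error of 0.55 on the log2 scale at these low levels). SLPI, a secreted protease inhibitor, rose 3.96-fold, IFI16, a nuclear DNA sensor, 3.71-fold, ADGRF1, an adhesion G protein coupled receptor, 3.63-fold, CR2, a complement receptor, 3.59-fold and APOL3, an apolipoprotein L, 3.47-fold. FOXQ1, a forkhead factor, rose 3.60-fold and 7.75-fold in the corrected fit. CH507-9B2.9 lies on a part of chromosome 21 that may have near-identical copies, so its 3.47-fold rise is uncertain.

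Set beside the single treatments, 11 of these 12 rises were also called higher against Telaglenastat tumors in the corrected fit, and 3 of the 12 were called higher against Palbociclib tumors. Over all tested genes 8.25% and 7.02% were called higher in these contrasts. The 12 were picked for high levels in the same Combination tumors, which tilts these counts, so they are not a separate test. LCN2 averaged 19.2 ± 4.37 CPM (SD, n = 5) in Palbociclib tumors and the Combination level was above it by 0.96 (adjusted p = 0.014). F3 averaged 359 ± 105 CPM (SD, n = 5) there and was not called against it (0.16, adjusted p = 0.67). The 3 rises above Palbociclib were those of LCN2, FOXQ1 (1.39, adjusted p = 0.0041) and the uncertain CH507-9B2.9 (1.04, adjusted p = 0.032).

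The 12 largest falls were those of MYBL2, POTEF, MVD, SF3B5, DCXR, NCAPH2, UBE2S, NAT14, ENTPD2, SBNO2, KIF18B and PHGDH. SF3B5, a small subunit of the SF3b splicing complex, was at 26.8, 37.2 and 29.2 CPM in Control and 5.08, 4.48, 6.67 and 6.25 CPM in Combination, 5.50-fold lower (3.54-fold in the corrected fit). UBE2S, the ubiquitin conjugating enzyme of the anaphase promoting complex, fell 5.31-fold (2.98-fold in the corrected fit), NCAPH2, a condensin II subunit, 5.40-fold (2.63-fold) and KIF18B, a mitotic kinesin, 4.84-fold (2.45-fold). DCXR, an L-xylulose reductase, fell 5.46-fold (2.45-fold) and ENTPD2, an ectonucleotidase, 5.07-fold (2.25-fold). These were large in both fits but smaller in the corrected one. NAT14 fell 5.23-fold (2.14-fold) and SBNO2, a transcriptional coregulator, 4.93-fold (2.04-fold). POTEF, an actin-related gene whose reads can be shared with close paralogs and is therefore uncertain, fell 6.49-fold. Of these 12 falls 11 were also called lower against Palbociclib tumors and 4 against Telaglenastat tumors in the corrected fit. Over all tested genes 7.88% and 7.43% were called lower in these contrasts. The falls too were picked on the same Combination tumors, so these counts are not a separate test. All 24 genes kept their calls when any 1 of the 7 libraries was left out.

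**Figure D3:**
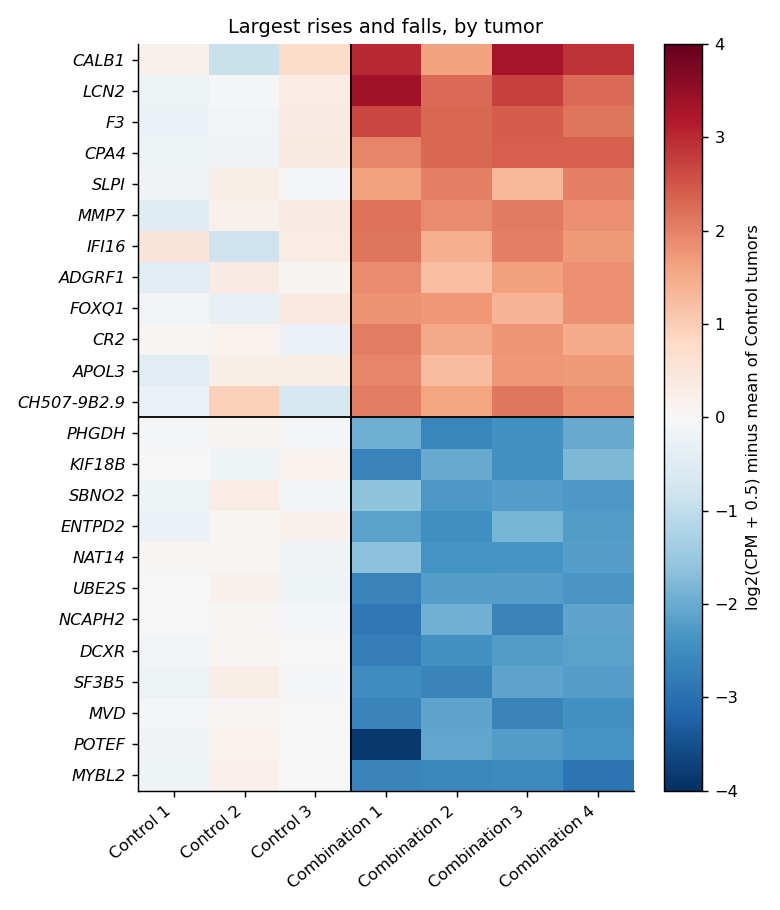
Level in each of the 7 tumors of the 12 genes with the largest rise and the 12 with the largest fall, as log2(CPM + 0.5) minus the mean of the Control tumors (red higher, blue lower). In each of the 24 genes all 4 Combination tumors lay on the same side of all 3 Control tumors, which the naming rule required.

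Of 27 tested p53 targets 14 were lower and 5 higher (median -0.26), and in the corrected fit 5 were lower and 2 higher (median -0.06). This list and the BCL2 family stand beside 26.9% of all tested genes lower and 17.6% higher, or 13.3% and 13.0% in the corrected fit. BAX, a pore forming protein of the mitochondrial outer membrane, fell 2.92-fold, FDXR, ferredoxin reductase, 3.65-fold, and TP53I11 2.85-fold, or 1.48-fold, 1.67-fold and 1.37-fold in the corrected fit. PMAIP1, the BH3-only protein NOXA, rose 1.79-fold, from 89.8 to 95.2 CPM in Control to 124 to 189 CPM in Combination. Among 15 genes of the BCL2 family 7 were lower and 4 higher (median -0.26), and 2 lower and 7 higher in the corrected fit (median 0.20). BIK, a BH3-only protein, was at 53.2, 59.1 and 54.6 CPM against 61.5, 73.2, 80.5 and 74.2 CPM, 1.30-fold higher and 1.95-fold in the corrected fit, and BMF, another, fell 3.07-fold (2.00-fold in the corrected fit).

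Of 33 secreted factors listed for senescent cells 21 were tested. The 12 not tested included IL1A, IL1B, IL6, CXCL2, CXCL3, CCL20, MMP1, MMP3, MMP10 and CSF2. Of the 21, 8 were higher and 5 lower (median 0.26), and 8 were higher and 1 lower in the corrected fit (median 0.29). Of all tested genes 17.6% were higher and 26.9% lower, or 13.0% and 13.3% in the corrected fit. Besides MMP7, IGFBP3, which binds insulin-like growth factors, was at 48.5, 56.3 and 54.5 CPM against 106, 100.5, 135 and 114 CPM (1.10 ± 0.18, adjusted p = 4.4e-05). CXCL1, a neutrophil attracting chemokine, was near 1 CPM in Control (1.12 to 1.22) and at 1.75 to 3.13 CPM in Combination, a rise of 1.15 (adjusted p = 0.032). Its call was lost when any 1 of the 3 Control tumors, Combination tumor 2 or Combination tumor 4 was left out, with values of 1.05 to 1.18. Against Telaglenastat tumors 10 of the 21 were higher and 0 lower in the corrected fit, with MMP7 above by 2.68. Against Palbociclib tumors 2 were higher and 0 lower (median 0.07). Of all tested genes 8.25% and 7.02% were called higher in these contrasts. Palbociclib tumors themselves had 5 higher and 1 lower against Control in the corrected fit (median 0.21).

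Amino acid metabolism was mixed as a whole, with clear changes in single genes. Its lists stand beside 26.9% of all tested genes lower and 17.6% higher, or 13.3% and 13.0% in the corrected fit. Of 26 tested genes of glutamine and glutamate use 10 were lower and 9 higher (median -0.03), and 4 lower and 5 higher in the corrected fit. CAD, the enzyme that starts pyrimidine synthesis from glutamine, fell 2.22-fold (1.33-fold in the corrected fit), and ALDH4A1, of proline breakdown, fell 4.28-fold (2.14-fold). GFPT1, which spends glutamine on hexosamines, rose 1.61-fold, from 111 to 125 CPM to 175 to 203 CPM. Of 17 amino acid transporters 6 were lower and 3 higher (median -0.19), but in the corrected fit 1 was lower and 1 higher. SLC1A5, the plasma membrane carrier that brings glutamine into cells, was at 92.4, 108 and 89.1 CPM against 37.3, 37.6, 39.2 and 38.5 CPM (2.53-fold lower, 1.41-fold in the corrected fit). SLC38A1, another glutamine carrier, was at 369.8, 388 and 371 CPM against 549.9, 505, 492 and 457 CPM (1.33-fold higher). The falls of SLC3A2, a subunit shared by several carriers, and SLC43A2, a carrier of large neutral amino acids, were not called in the corrected fit (adjusted p = 0.52 and 0.17).

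PHGDH (chr1:119648411-119744226, plus strand), the first enzyme of serine synthesis, was at 50.3, 55.7 and 50.2 CPM in Control and at 13.2, 8.06, 9.37 and 12.5 CPM in Combination. It was 4.84-fold lower (-2.27 ± 0.22, adjusted p = 1.3e-07), and 3.23-fold lower in the corrected fit. It was also lower against Telaglenastat tumors (-0.85, adjusted p = 0.0048) and against Palbociclib tumors (-0.91, adjusted p = 0.0014) in the corrected fit, and the mean of each single treatment stood between those of Control and Combination. Of 21 genes of serine and one-carbon metabolism 9 were lower and 3 higher (median -0.12), and 7 lower and 4 higher in the corrected fit (median -0.07). Beside this list and those of ATF4 and the synthetases stand 26.9% of all tested genes lower and 17.6% higher, or 13.3% and 13.0% in the corrected fit. SHMT2, the mitochondrial serine hydroxymethyltransferase, fell 2.28-fold (1.39-fold in the corrected fit) and GLDC, of the glycine cleavage system, 1.86-fold. Among 26 ATF4 targets, genes of the amino acid stress response, 10 were lower and 2 higher (median -0.19), and 4 lower and 4 higher in the corrected fit (median 0.04). ASNS, asparagine synthetase, was at 75.2, 69.7 and 65.1 CPM against 90.4, 80.9, 63.9 and 80.5 CPM and was not called (0.17, adjusted p = 0.25). PCK2, the mitochondrial PEP carboxykinase, fell 3.38-fold (1.77-fold in the corrected fit) and DDIT3, the stress factor CHOP, 1.51-fold. The call of GLDC was lost without Control tumor 1 (-0.71), and that of DDIT3 without Control tumor 1 (-0.56), Control tumor 2 (-0.57) or Combination tumor 3 (-0.45). Of 20 aminoacyl-tRNA synthetases 6 were lower and 8 higher (median 0.08), and 5 lower and 4 higher in the corrected fit (median 0.04), with FARSA 3.40-fold lower (1.65-fold) and VARS 3.04-fold lower (1.47-fold). QARS, which charges the glutamine tRNA, fell 1.70-fold (1.19-fold in the corrected fit) and MARS 1.47-fold.

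**Figure D4:**
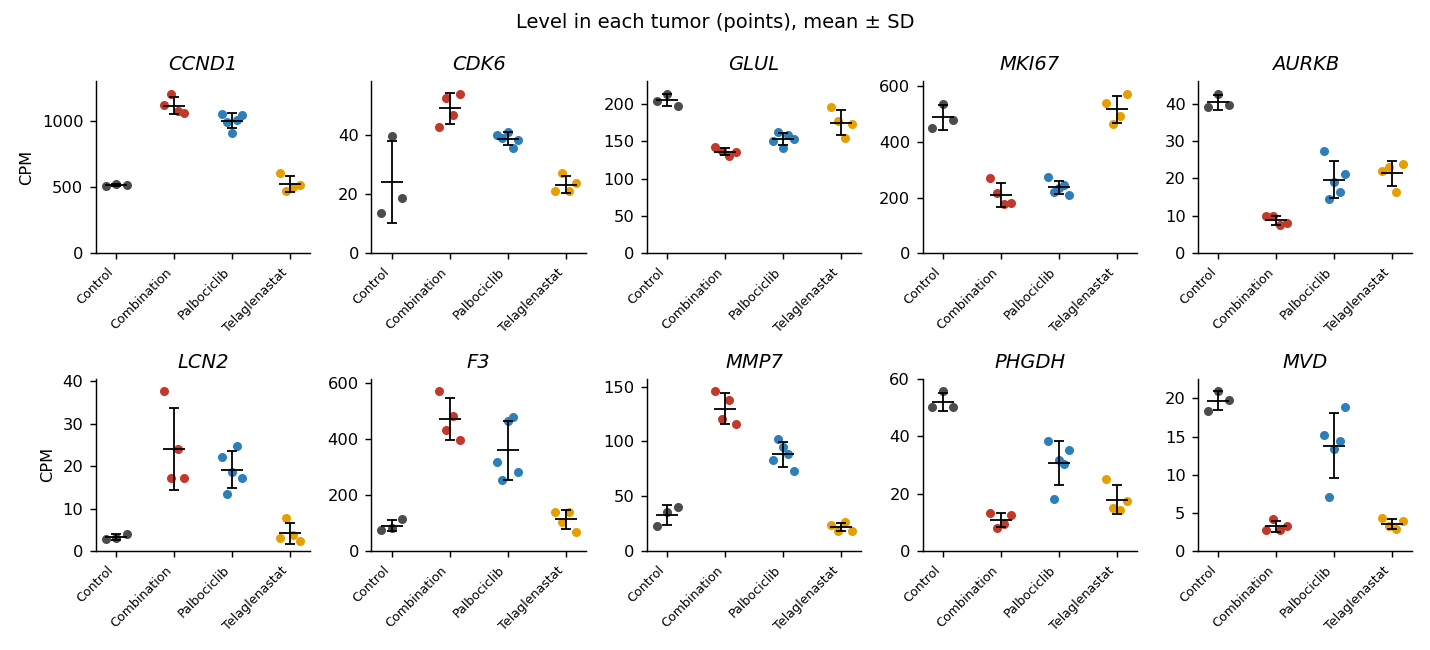
Level in CPM of 10 genes in every tumor (points) of the 4 groups, with the mean and SD of each group as a line and bars. CCND1 was at 1063 to 1208 CPM in Combination and 511 to 526 CPM in Control.

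Over all tested genes 26.9% were called lower and 17.6% higher, or 13.3% and 13.0% in the corrected fit, and the lists of sugar metabolism are read beside these shares. Of 30 genes of glycolysis and lactate 16 were lower and 4 higher (median -0.25), and 14 lower and 4 higher in the corrected fit (median -0.13). ALDOA, an aldolase, was at 934, 1118 and 1086 CPM in Control and 269.8, 334, 312 and 314 CPM in Combination, 3.40-fold lower (1.79-fold in the corrected fit). SLC16A3, the lactate exporter MCT4, fell 4.21-fold (1.81-fold), PFKL, a phosphofructokinase, 3.81-fold (1.67-fold) and ALDOC 2.65-fold. Of 10 genes of the pentose phosphate pathway 5 were lower and 1 higher in both fits (median -0.48, and -0.37 in the corrected fit). TKT, transketolase, fell 2.98-fold (1.77-fold), TALDO1, transaldolase, 2.13-fold and PGD, an oxidative enzyme of the pathway, 1.74-fold.

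Of 26 genes of the TCA cycle and citrate 12 were lower and 3 higher (median -0.12), and 12 lower and 0 higher in the corrected fit (median -0.25). This list and those of the respiratory chain stand beside 26.9% of all tested genes lower and 17.6% higher, or 13.3% and 13.0% in the corrected fit. IDH3G, a subunit of the NAD dependent isocitrate dehydrogenase, fell 4.15-fold (2.15-fold in the corrected fit), SLC25A1, the citrate carrier, 3.69-fold (1.54-fold), IDH2 2.72-fold (1.68-fold) and OGDH, which takes in glutamine carbon at 2-oxoglutarate, 2.38-fold. In the respiratory chain the mitochondrially encoded genes rose together, while the nuclear genes moved in both directions. All 13 mitochondrially encoded genes were higher in both fits, with medians of 1.10 and 0.90. MT-ND6 was at 1116, 992 and 1094 CPM against 3163, 2791, 2899.8 and 2644 CPM (1.43 ± 0.20, adjusted p = 7.1e-06). MT-ND5 was at 3165, 2891 and 3283 CPM against 8349, 7408, 6851 and 6376 CPM, and MT-ND2 at 2589, 2452 and 2549 CPM against 6298, 5920.3, 6167 and 5074 CPM. These levels moved with the mitochondrial share of each library given above, which they make up, and the part of RNA quality or cell content in it was not tested. MT-ATP8, which overlaps another mitochondrial gene, was 2.27-fold higher (1.52-fold in the corrected fit). Of 71 nuclear genes of the respiratory chain 28 were lower and 17 higher (median -0.11), and 23 lower and 9 higher in the corrected fit (median -0.15). NDUFA13 and NDUFA11, of complex I, fell 5.83-fold and 5.44-fold (2.76-fold and 2.54-fold in the corrected fit), CYC1, cytochrome c1, 4.30-fold (1.98-fold) and NDUFA7 3.66-fold. Against Telaglenastat tumors 12 of the 13 mitochondrial genes were higher in the corrected fit (median 0.81), and against Palbociclib tumors 6 (median 0.36). Of all tested genes 8.25% and 7.02% were called higher in these contrasts.

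Of 24 genes of cholesterol synthesis 17 were lower and 0 higher (median -0.65), beside 26.9% of all tested genes called lower, and 15 were lower and 0 higher in the corrected fit (median -0.43), beside 13.3%. MVD (chr16:88651935-88663161, minus strand), the mevalonate diphosphate decarboxylase, was at 18.4, 20.9 and 19.8 CPM in Control and 2.70, 4.18, 2.70 and 3.27 CPM in Combination. It was 6.10-fold lower (-2.61 ± 0.26, adjusted p = 1.9e-07), and 2.67-fold lower in the corrected fit. LSS, lanosterol synthase, was at 63.2, 64.9 and 63.1 CPM against 13.7, 17.8, 17.3 and 20.7 CPM, 3.66-fold lower (2.07-fold). MVK, mevalonate kinase, fell 3.08-fold (1.62-fold). Against Telaglenastat tumors 2 of the 24 were lower and 1 higher, and against Palbociclib tumors 3 lower and 0 higher, in the corrected fit. Over all tested genes 7.43% were called lower and 8.25% higher against Telaglenastat tumors, and 7.88% and 7.02% against Palbociclib tumors. Of 27 genes of fatty acid synthesis and use 11 were lower and 3 higher (median -0.16), and 8 lower and 4 higher in the corrected fit (median -0.17). FASN, fatty acid synthase, was at 191, 201 and 206 CPM against 42.2, 42.4, 40.9 and 51.2 CPM, 4.51-fold lower (1.93-fold in the corrected fit). ETFB, an electron carrier of fatty acid oxidation, fell 3.39-fold, SREBF1, the lipogenic factor SREBP-1, 2.76-fold (1.25-fold in the corrected fit), and ACSS2, which makes acetyl-CoA from acetate, 1.55-fold.

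MYC, the growth factor responsive transcription factor, was at 169, 198 and 202 CPM in Control and 224, 196, 170.1 and 169.7 CPM in Combination. The groups overlapped and the difference was 0.00 (adjusted p = 0.98), but the corrected fit gave 0.68 ± 0.12 (adjusted p = 0.00029), so the call rested on the correction. Of 26 genes of MYC targets and ribosome biogenesis 10 were lower and 5 higher (median -0.02), and 4 lower and 4 higher in the corrected fit. The lists of this paragraph stand beside 26.9% of all tested genes lower and 17.6% higher, or 13.3% and 13.0% in the corrected fit. FBL, the rRNA methyltransferase fibrillarin, fell 2.09-fold (1.35-fold in the corrected fit), BOP1 and PES1, of the complex that matures the large subunit, 4.29-fold and 2.06-fold (1.82-fold and 1.29-fold), and PPAN 3.76-fold (1.75-fold). Of 79 cytosolic ribosomal protein genes, many of which have pseudogene copies, 31 were lower and 29 higher (median -0.01), and 24 lower and 31 higher in the corrected fit (median 0.08). RPS9 was at 279.6, 312 and 325 CPM against 62.1, 80.0, 80.5 and 74.8 CPM, 4.10-fold lower (2.34-fold in the corrected fit). RPS15 fell 3.69-fold (1.76-fold), RPL8 3.50-fold (1.72-fold) and RPL36 3.08-fold (1.41-fold). Against Telaglenastat tumors 44 of the 79 were higher and 0 lower in the corrected fit, and against Palbociclib tumors 35 were lower and 15 higher. In these contrasts 7.43% and 7.88% of all tested genes were called lower, and 8.25% and 7.02% higher. Of 21 genes of polyamines and arginine 12 were lower and 3 higher (median -0.46), and 10 lower and 1 higher in the corrected fit (median -0.10). SMOX, spermine oxidase, fell 3.32-fold (1.76-fold), ASL, argininosuccinate lyase, 4.75-fold (2.30-fold) and the arginine methyltransferases PRMT1 and CARM1 3.17-fold and 2.77-fold (1.90-fold and 1.42-fold).

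Genes of the secretory pathway rose as a group. Of 36 genes of ER folding and protein export 22 were higher and 7 lower (median 0.39), beside 17.6% of all tested genes called higher, and 18 were higher and 3 lower in the corrected fit (median 0.23), beside 13.0%. HSPA5, the ER chaperone BiP, was at 969, 1170.5 and 1004 CPM against 1671, 1867, 1688 and 1584 CPM (0.70 ± 0.10, adjusted p = 9.8e-06). DNAJB9, its cofactor, was at 29.3, 31.98 and 28.4 CPM against 52.4, 57.0, 62.8 and 50.1 CPM (1.86-fold higher). The groups did not overlap in either gene. SPCS3, of the signal peptidase, rose 1.51-fold and SSR1, of the translocon, 1.498-fold. Against Telaglenastat tumors 17 of the 36 were higher and 1 lower in the corrected fit, and against Palbociclib tumors 7 higher and 3 lower. The shares of all tested genes in these contrasts were 8.25% and 7.02% higher, and 7.43% and 7.88% lower. Of 35 genes of lysosome and autophagy 17 were lower and 9 higher (median -0.24), and 4 lower and 10 higher in the corrected fit (median 0.09). The shares of all tested genes called lower were 26.9%, and 13.3% in the corrected fit. NPC2, the lysosomal cholesterol carrier, was at 87.9, 93.7 and 89.7 CPM against 178, 196, 184 and 176 CPM, 2.03-fold higher in both fits. GAA, acid glucosidase, fell 3.06-fold (1.34-fold in the corrected fit) and ATP6V0D1, of the proton pump, 2.53-fold (1.62-fold).

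Of 40 genes of interferon and antigen presentation 22 were lower and 8 higher (median -0.35), and 9 lower and 10 higher in the corrected fit (median 0.05). Over all tested genes the shares were 26.9% lower and 17.6% higher, or 13.3% and 13.0% in the corrected fit. ISG15, a ubiquitin-like interferon-induced protein, was at 57.5, 61.3 and 51.6 CPM in Control and 9.05, 5.22, 9.94 and 11.01 CPM in Combination, 6.44-fold lower (2.84-fold in the corrected fit). OAS2, which makes the signal for RNase L, moved the other way, at 3.82, 3.76 and 5.29 CPM against 17.8, 10.7, 12.1 and 18.1 CPM, 3.43-fold higher. Both are interferon-induced genes, and their groups did not overlap. IFI35 fell 4.26-fold (2.49-fold) and LY6E 3.59-fold (1.61-fold). The 9-letter interferon word GAAANNGAA stood in the 250 bases before the start in 19 of 30 matched promoters of this list (63.3%), against 7.06% of all promoters.

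Of 27 hypoxia genes 8 were lower and 8 higher (median -0.12), and 3 lower and 8 higher in the corrected fit (median 0.12). The lists of this paragraph stand beside 26.9% of all tested genes lower and 17.6% higher, or 13.3% and 13.0% in the corrected fit. ERO1A, the ER oxidase, rose 1.59-fold, P4HA1, a collagen prolyl hydroxylase, 1.58-fold and AK4, an adenylate kinase, 1.47-fold, while PFKFB4, a regulator of glycolysis, fell 2.43-fold. Of 14 WNT targets 2 were lower and 2 higher (median -0.09), and 3 lower and 6 higher in the corrected fit (median 0.30). CD44, a hyaluronan receptor, rose 1.33-fold and EPHB3, an ephrin receptor, fell 4.31-fold (2.06-fold in the corrected fit), while the fall of EPHB2 was lost there (adjusted p = 0.088). Of 23 genes of MAPK output and feedback 10 were lower and 5 higher (median -0.22), and 4 lower and 4 higher in the corrected fit (median -0.03). DUSP4, a MAPK phosphatase, was at 167, 168 and 155 CPM against 330.2, 317, 311 and 317 CPM, 1.95-fold higher (0.96 ± 0.08, adjusted p = 3.8e-08). ETV4, an ETS factor, fell 2.92-fold (1.51-fold in the corrected fit), ERBB2, a receptor kinase, 2.51-fold (1.33-fold), and TGFA, an EGFR ligand, rose 1.22-fold. The call of TGFA was lost without Control tumor 2 (0.27), Control tumor 3 (0.25) or Combination tumor 2 (0.23). Of 24 genes of NRF2 and glutathione 11 were lower and 6 higher (median -0.30), and 7 lower and 3 higher in the corrected fit (median -0.12). GPX4, the lipid peroxide reductase, fell 3.02-fold (1.35-fold) and FTL, the ferritin light chain, 2.38-fold (1.56-fold).

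Of 23 epithelial and mesenchymal genes 7 were lower and 6 higher (median -0.06), and 2 lower and 8 higher in the corrected fit (median 0.17). This list and the marker lists stand beside 26.9% of all tested genes lower and 17.6% higher, or 13.3% and 13.0% in the corrected fit. TGFBI, an extracellular matrix protein, was at 8.64, 8.30 and 10.97 CPM against 36.2, 22.4, 19.3 and 24.1 CPM, 2.74-fold higher. SNAI2, the factor SLUG, was at 1.46, 1.33 and 1.81 CPM against 5.08, 6.27, 5.11 and 2.98 CPM, 3.16-fold higher. The epithelial genes EPCAM (1.25-fold) and CDH1 (1.19-fold) also rose, while CLDN4, a tight junction protein, fell 2.30-fold (1.39-fold in the corrected fit) and ITGA5, an integrin, 1.91-fold. The call of CDH1 was lost without Control tumor 1 (0.20). Of the 8 colorectal epithelial markers tested 3 were lower and 2 higher (median -0.23), and 1 lower and 3 higher in the corrected fit (median 0.22). KRT19 fell 2.58-fold (1.30-fold in the corrected fit), and KRT8 fell 1.59-fold but was at 0.08 and not called in the corrected fit (adjusted p = 0.57). Of the 9 markers of stroma, endothelium and immune cells tested 3 were lower and 0 higher (median -0.56), and 0 were called in the corrected fit (median -0.12). COL1A1, a collagen gene, was at 108, 136 and 114 CPM against 69.6, 67.8, 54.1 and 55.9 CPM (-0.95, adjusted p = 0.00013), and at 0.08 in the corrected fit (adjusted p = 0.71). Whether mouse reads from the host were separated before counting is not given in the sources used here, so the origin of these low levels was not tested.

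The cultures were lines explanted from tumors of treated mice and grown drug-free, so their contrast is not that of the tumors under drug. In the 3 Combination against the 3 Control cultures, 1 of 13985 genes (0.00715%) was called by edgeR, while 895 had an unadjusted p under 0.05. Here too the log2 fold changes moved with GC content (r = -0.376 over 13929 genes, with slopes of -0.133 to -0.065 in Combination and -0.072 to 0.180 in Control cultures), and no correction was fitted. It was TICAM2, a Toll-like receptor adaptor, chosen after its values were seen, which shares exons with a read-through gene and was not called in the tumors (1.06, adjusted p = 0.39). Of the 24 genes of largest change in the tumors 18 were tested in the cultures and 0 were called. CPA4 and CCND1, higher in every Combination tumor, were at -0.38 and -0.15 in the cultures and were not called there. They were picked here after their culture values were seen, and the difference between settings was not tested.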

How the data were processed

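Poly(A) RNA of HCT116 tumors and cultures was sequenced as single-end reads, and per the labels and the methods of the study the authors called bases with CASAVA 1.8, aligned reads with STAR to the Ensembl hg38 genome and deposited whole-number counts per gene, with no normalization. The library kit marked strand, but whether the counting used it, the annotation release and any removal of mouse reads are not given in the sources used here, so genes that overlap on either strand cannot be fully told apart. Among the 148 genes named by rule, 23 share exon positions with a gene of the same strand, and another 36 only with a gene of the opposite strand. The 4 copies of MIR1244 had the same counts in 28 of 28 libraries, so near-identical copies are uncertain too. The read length and alignment settings also decide how reads of paralogs were split.

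Groups came from the treatment labels. Of 58278 rows, 57895 matched GENCODE 29 by gene identifier, and 22232 had no count in any library. All 16 tumors were fitted together with edgeR 4.0.16 (R 4.3.3) after filterByExpr (minimum count 10), TMM scaling and a quasi-likelihood fit, so 12 residual degrees of freedom over the 4 groups set the spread, and p-values were adjusted by the Benjamini-Hochberg method over 14848 genes. The corrected fit added, for each library, offsets from splines of GC content and transcript length with 5 degrees of freedom each. The labels number the tumors but do not tie each to a mouse of its own, and p-values measure the spread between these samples. No 2 libraries of a group agreed within sampling noise (chi-square per degree of freedom 4.02 to 7.62). Scripts were tested on simulated counts.

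Named genes were the 12 protein-coding genes with the largest rise and the 12 with the largest fall among those called the same way in both fits, with mean log2 CPM of at least 2, no overlap between groups and no shared exon. To these came 10 genes tied to the drugs and up to 4 members of each of 32 lists. E2F1, CDC20, PLK1, RB1, CCNE1 and TICAM2 fall outside this rule and were chosen after their values were seen. The comparison, its members and the lists were chosen with earlier results of these data known. Alternatives were DESeq2 1.42.0, its size factors, other filters and gene sets, a replicate block, the corrected fit and each library left out. Promoter sequences came from RefSeq for GRCh38.p14. Some members of the lists are not reported by name here.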

Additional observations from a re-analysis of the deposited data

Results flagged for a closer look

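In 153 genes tested for a Combination tumor far from the other 3, 9 had a gap-to-range ratio above Dixon's 95% critical value, and chance alone flags about 1 in 20. Combination tumor 1 stood apart in SBNO2 (ratio 0.874, the highest level), IDH3G (0.888, the lowest), CYC1 (0.874, the lowest) and RPL36 (0.856, the lowest). Combination tumor 2 was the highest in TK1 (0.848) and PES1 (0.919). Combination tumor 4 was the highest in FASN (0.854) and PFKFB4 (0.849) and the lowest in SSR1 (0.875). In each of these genes all 4 Combination tumors stayed on the same side of the 3 Control tumors, which the naming rule required.

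CPA4 and CCND1 were higher in every Combination tumor than in every Control tumor, while every Combination culture, grown drug-free from treated tumors, was below every Control culture, at log2 fold changes of -0.379 and -0.151. Neither gene was called in the cultures. Both were picked for this pattern, and the share of all tested genes with such a separation was not computed. With 3 libraries in each culture group such a separation also arises by chance. The difference between tumors and cultures was not tested.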

How the results depend on the processing

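The main counts were 3998 lower, 2614 higher, 1946 at least 2-fold lower and 255 at least 2-fold higher. The correction for GC content and length gave 1977, 1933, 292 and 340, and together with a replicate block 1811, 1794, 283 and 319. Restricted to genes sharing no exon with another gene, fewer were tested, and 2097 were lower, 1084 higher, 1013 at least 2-fold lower and 123 at least 2-fold higher. At least 2-fold higher genes numbered 154 with at least 10 counts in each of the 7 libraries and 165 among protein-coding genes only. Leaving out 1 library gave 3522 to 3845 lower, 2068 to 2507 higher, 1774 to 1984 at least 2-fold lower and 216 to 258 at least 2-fold higher. Leaving out 1 library within the corrected fit, a step chosen after seeing the data, gave 1503 to 1876 lower, 1446 to 1808 higher, 250 to 304 at least 2-fold lower and 299 to 352 at least 2-fold higher. DESeq2 gave 3638 lower and 3287 higher, so that 52.5% of calls were lower. DESeq2 size factors gave 52.9% and a fit of the 7 tumors alone 55.1%. The replicate block gave 3924 lower and 2533 higher. Same-numbered tumors correlated at -0.06, 0.08 and -0.03 in their deviations from the group means. Tumors of unlike number correlated at -0.08 to 0.08. Whether same-numbered tumors share a batch was not tested. Of 148 named genes the corrected fit left 137 with the same call and direction, and ended 6 calls with the direction kept (CDKN1A, SLC3A2, SLC43A2, EPHB2, CD68 and COL5A1). It gave a call to 1 gene and changed the sign of 1 uncalled gene. A further 3 changed sign and also lost their calls, the cause of which was not tested: CDK4 (0.0612, and 0.0808 with the block), KRT8 (0.0768 and 0.088) and COL1A1 (0.0808 and 0.108), all on the log2 scale. The block ended the calls of 2, CXCL1 and DDIT3, and DESeq2 ended 0. At this depth low genes were measured loosely, with standard errors of 0.42 for CXCL1 and 0.55 for CALB1 against 0.08 for CCND1.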
